A study of Mus musculus with 6 samples.

Results

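The natriuretic peptide genes form a short hormone axis of 8 genes in these hearts: the peptides Nppa, Nppb and Nppc, the receptors Npr1, Npr2 and Npr3, and the processing proteases Corin and Furin. They were taken by gene name from the deposited table, which holds 31529 genes, and all 8 were found and passed the filter on low counts. The samples are hearts of ICR mice, an outbred stock, of wild-type genotype and with no treatment named in the labels: 3 libraries from embryos of day 16.5 (E16.5) and 3 from embryos of day 18.5 (E18.5). The number of hearts in a library and their litters are not given in the sources used here, so the p-values measure the spread between these libraries. The study addressed metabolism of fetal mouse organs late in gestation, and the comparison asks how cardiac transcripts differ between the 2 stages.

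Nppa encodes atrial natriuretic peptide and Nppb encodes B-type natriuretic peptide, hormones that cardiomyocytes make as precursors and release when the wall is stretched. In the fetal mouse heart Nppa is known to be transcribed in the atria and in the trabeculae of the ventricles. Corin, a serine protease of the cardiomyocyte membrane, cleaves the precursor of the atrial peptide, while Furin, a protease of the secretory pathway, is known to cleave the precursors of the B-type and C-type peptides. Both cardiac peptides bind Npr1, a receptor whose intracellular part makes cyclic GMP (cGMP), C-type peptide from Nppc binds the related cyclase Npr2, and Npr3 lacks the cyclase part and removes the peptides from the circulation.

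The libraries held 61443414 to 77237333 estimated counts. Of these, 19.9% to 41.4% fell on genes of the mitochondrial chromosome at E16.5 and 25.2% to 33.5% at E18.5, with the lowest share in E16.5 replicate 2. Cardiomyocyte markers (8 genes) summed to 16803 to 23111 CPM at E16.5 and 21935 to 26672 CPM at E18.5, so the defining genes of the labelled tissue were abundant. Lung epithelium markers summed to 91.8 to 158 CPM at E16.5 and 86.2 to 154 CPM at E18.5, liver markers to 34.8 to 83.4 CPM and 28.1 to 98.2 CPM, and those of thymus stayed at or below 0.306 CPM. CPM here are estimated counts scaled by TMM to a common library size.

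Per transcript length, the 8 genes spanned a wide range, and their order was nearly the same at both stages. On the FPKM scale (fragments per kilobase of transcript scaled to each library, as deposited), Nppa stood at 1044 ± 129 at E16.5 and 2468 ± 275 at E18.5 (SD, n = 3), which placed it at rank 37 and rank 28 by mean FPKM among all genes of the table. Nppb followed with a level of 49.5 ± 5.69 FPKM at E16.5 and 96.02 ± 6.35 FPKM at E18.5, ranks 507 and 300. Npr2 was the most abundant receptor transcript, at 20.8 ± 3.58 FPKM and 21.03 ± 1.80 FPKM. Corin came next at 9.98 ± 4.40 FPKM and 11.9 ± 2.68 FPKM, below Npr2 in every library. The levels of Npr3 (5.70 ± 2.81 and 5.56 ± 0.967 FPKM), Npr1 (4.73 ± 1.38 and 6.65 ± 0.940 FPKM) and Furin (3.62 ± 0.762 and 4.04 ± 0.282 FPKM) lay close together. At E16.5 the spreads of these neighbours overlapped, though Furin was below both Npr3 and Npr1 in every library. The order of Npr3 and Npr1 was exchanged at E18.5, where their spreads also overlapped. Nppc was last, at 0.305 ± 0.270 FPKM and 0.103 ± 0.138 FPKM.

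**Figure D1:**
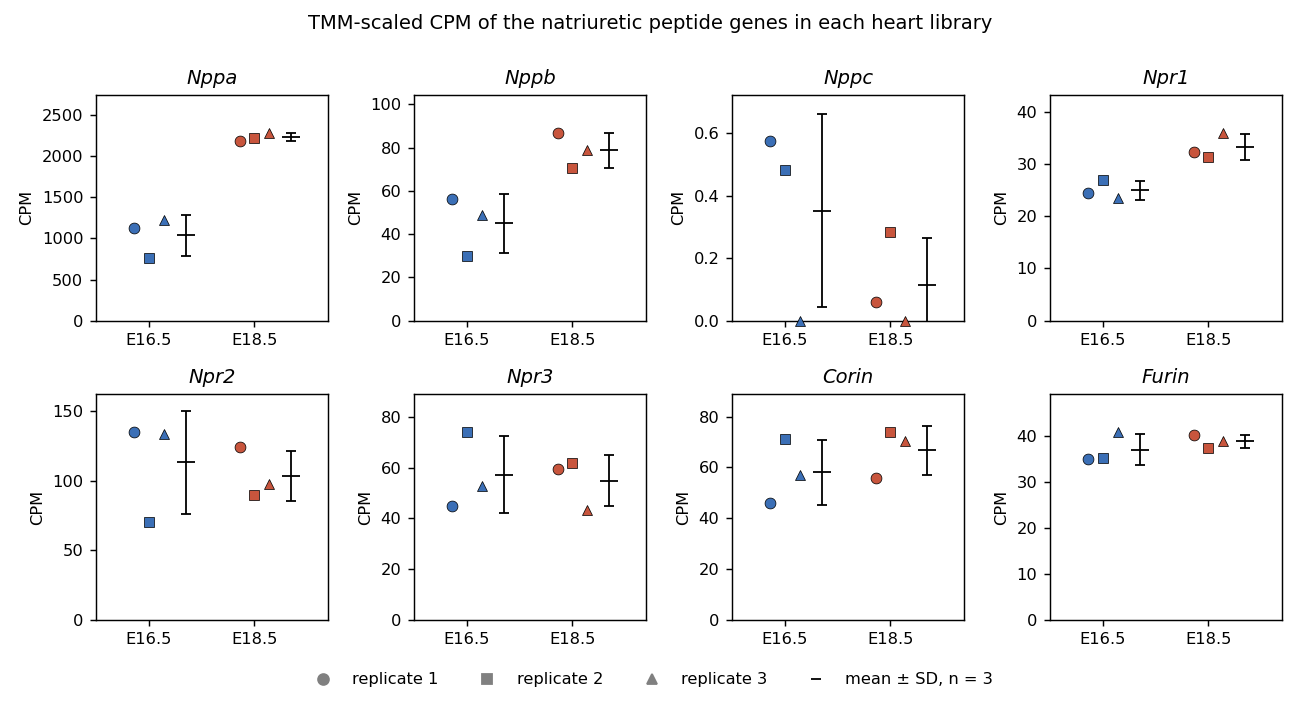
TMM-scaled CPM (vertical axes, each from 0) of the 8 genes in the 3 libraries of each stage (circle, square and triangle for replicates 1, 2 and 3), with the mean ± SD beside them. The E18.5 libraries lie above all E16.5 libraries for Nppa (2184 to 2284 CPM against 757 to 1229 CPM), Nppb and Npr1, and the stages overlap for the other 5 genes.

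None of the 8 genes passed the test between stages over all genes (edgeR quasi-likelihood test, two-sided, Benjamini-Hochberg adjusted p under 0.05), where the background was 30 of 19959 tested genes, or 0.150%. At an unadjusted p under 0.05, Nppa, Nppb and Npr1 were higher at E18.5 and 0 of the 8 were lower, against 4.83% of all tested genes higher and 4.70% lower. On the CPM scale, the same 3 genes were those whose stages did not overlap. This arrangement, with the E18.5 libraries on top, held in 8.45% of all tested genes. The median log2 change was 0.13 over the 8 genes and -0.0019 over all genes tested. As the genes were chosen with earlier results known, these counts are descriptions. In bulk RNA of this kind, more cells of a type and more RNA per cell cannot be told apart.

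Nppa (ENSMUSG00000041616, GRCm38 chromosome 4, 148000722 to 148002079, plus strand) was the most abundant of the 8 and had the smallest p of them between stages. Its level was 1124, 757 and 1229 CPM in the E16.5 libraries (replicates 1, 2 and 3, the order used throughout) and 2184, 2219 and 2284 CPM in the E18.5 libraries. Every E18.5 library lay above every E16.5 library, and the E18.5 libraries were the tighter group, with a coefficient of variation of 2.27% against 23.9%. The log2 change was 1.10 ± 0.20 (SE), a 2.15-fold difference, with an unadjusted p of 5.25e-04 and an adjusted p of 0.147 in edgeR, and Nppa was at rank 70 of the tested genes by p. Over nuclear genes alone, without TMM scaling, Nppa took 1558, 1143 and 1745 CPM in the E16.5 libraries and 3061, 3263 and 3342 CPM in the E18.5 libraries, and the stages stayed apart on this scale too. An antisense gene, Gm13054, overlaps Nppa on the other strand and held 0.672% as many counts, and the strand setting of the counting is not known.

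With single libraries left out, Nppa passed the threshold in edgeR only without E16.5 replicate 2. That library held the lowest Nppa CPM and the lowest mitochondrial share. In these fits the number of genes called over the whole table was also highest without it. Without that library the log2 change was 0.92 and the adjusted p 0.0236 in edgeR, while leaving out each of the 5 other libraries gave log2 changes of 1.09 to 1.24 and adjusted p from 0.298 to 0.502. With the mitochondrial share as a further term the log2 change was 1.22 and the adjusted p 0.00663 in edgeR, and the DESeq2 Wald test gave an adjusted p of 9.57e-06. Across the 15 alternatives, Nppa was higher at E18.5 in all 15 and past the threshold in 3, with adjusted p from 9.57e-06 to 0.502.

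Nppb (ENSMUSG00000029019, chromosome 4, 147985788 to 147987205, plus strand) lies 13516 bases upstream of Nppa in the same orientation and was also higher at E18.5. Its level was 56.1, 29.9 and 49.0 CPM in the E16.5 libraries, against 87.0, 70.5 and 78.9 CPM in the E18.5 libraries. The stages did not overlap, and E16.5 replicate 2 was again the lowest library. The log2 change was 0.81 ± 0.22 (SE), or 1.75-fold, with an unadjusted p of 0.00643 and an adjusted p of 0.305 in edgeR. It was past the threshold in 2 of the 15 alternatives, the DESeq2 Wald test (adjusted p = 0.0415) and the edgeR fit with the mitochondrial share as a term (adjusted p = 0.00688), with adjusted p up to 0.706 in the others. Leaving out E16.5 replicate 2 gave 0.59 with an adjusted p of 0.0624 in edgeR.

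Because both peptide genes were higher at E18.5 and neighbour each other, the 300 bases around their RefSeq starts are shown (250 before and 50 after, plus strand, GRCm38.p6), for Nppa at chr4:148000472-148000771 and for Nppb at chr4:147985650-147985949. Capitals mark matches on either strand to letters that stand for factors known to act at these promoters: GATAA (GATA factors), AAGTG (NKX2-5), GGTGTGA (T-box factors), GGAATG (the MCAT element of TEAD factors) and TATAAA (the TATA box).
Nppa: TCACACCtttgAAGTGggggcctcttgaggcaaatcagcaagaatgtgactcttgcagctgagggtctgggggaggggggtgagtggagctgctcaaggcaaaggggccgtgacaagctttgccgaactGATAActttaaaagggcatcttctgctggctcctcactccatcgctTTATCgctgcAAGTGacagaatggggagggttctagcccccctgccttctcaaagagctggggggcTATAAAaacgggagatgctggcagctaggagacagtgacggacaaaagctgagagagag
Nppb: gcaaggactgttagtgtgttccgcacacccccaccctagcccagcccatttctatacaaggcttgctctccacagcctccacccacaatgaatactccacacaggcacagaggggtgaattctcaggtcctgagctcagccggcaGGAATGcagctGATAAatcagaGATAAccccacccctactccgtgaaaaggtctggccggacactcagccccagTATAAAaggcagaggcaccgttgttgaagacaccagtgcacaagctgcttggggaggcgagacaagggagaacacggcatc
In the Nppa window, GATAA began at -121 and, on the other strand, at -75, AAGTG at -239 and -65, the T-box letters on the other strand at -250, and TATAAA at -9, counted from the start as +1. In the Nppb window, GATAA began at -94 and -83, GGAATG at -105 and TATAAA at -31. The start RefSeq gives for Nppb lies 112 bases inside the GENCODE gene, while for Nppa the RefSeq and GENCODE starts are the same base. TATAAA thus lay nearer the annotated start at Nppa than at Nppb, or at Nppc (-29). Whether the Nppa match serves as a TATA box for that start was not tested.

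**Figure D2:**
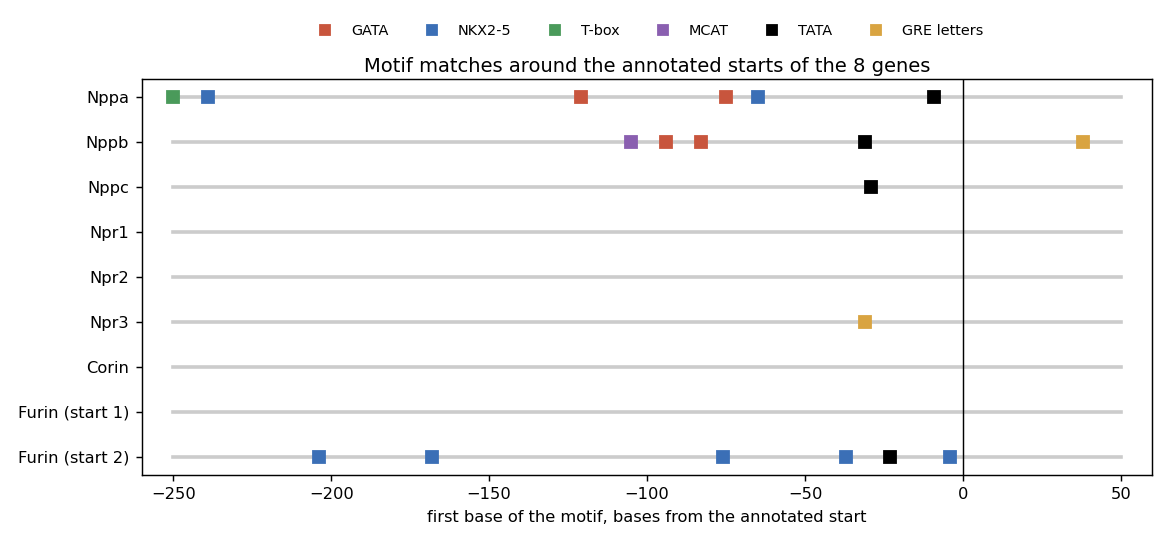
Matches to 6 of the 7 motifs searched, as coloured squares at the first base of each match, in bases from the annotated start (horizontal axis), with 1 line for each annotated start of the 8 genes and Furin on 2 lines. Squares of the GATA motif stand on the lines of Nppa and Nppb and on no other line. The motif was in 25.4% of all RefSeq mouse windows of that length, so this is near the background share.

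Windows were found for all 8 genes, 9 in number since Furin has 2 starts, and no 2 matches in them overlapped. GATAA was in 2 places in each of the Nppa and Nppb windows and in no window of the other 6 genes. It was in 25.4% of the 32851 RefSeq mouse windows of that length, so its presence in 2 of 9 windows is near that background share. AAGTG was in 46.4% of all windows, GGAATG in 14.7%, TATAAA in 13.6% and GGTGTGA in 3.98%. Among the other genes, Nppc held 1 match to TATAAA, and the upstream Furin window held 1 to TATAAA and 5 to AAGTG. The letters AGAACA, part of the glucocorticoid receptor's element (GRE), were in 19.0% of all windows and occurred once each at Nppb (at 38) and Npr3 (at -31). The CArG element of serum response factor was in 1.63% of all windows and in none of the 9.

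Nppc (ENSMUSG00000026241, chromosome 1, 86666291 to 86670571, minus strand) was barely detected. Its estimated counts were 36, 39 and 0 in the E16.5 libraries and 4, 20 and 0 in the E18.5 libraries, and the stages overlapped. A count of 0 allows up to 3 counts, which is 0.0437 CPM for the E16.5 library at 0 and 0.0446 CPM for the E18.5 library at 0, for counting error only. The log2 change was -1.59 ± 1.59 (SE) with an adjusted p of 0.766 in edgeR, and the E16.5 libraries alone spanned 0 to 39 counts.

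The proportion of atrial to B-type peptide transcripts did not separate the stages. The FPKM ratio of Nppa to Nppb within a library was 18.1, 22.9 and 22.7 in the E16.5 libraries and 22.7, 28.4 and 26.1 in the E18.5 libraries. The stages overlapped, with means of 21.2 ± 2.70 and 25.7 ± 2.88 (SD, n = 3). The log2 difference of 0.28 had a two-sided p of 0.200 in an exact permutation test over libraries, in which 3 against 3 cannot go below 0.1. Nppa made up 95.4% ± 0.603 of the summed FPKM of the 3 peptide genes at E16.5 and 96.2% ± 0.414 at E18.5.

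Of the receptors, the guanylyl cyclase Npr1 (ENSMUSG00000027931, chromosome 3, 90450591 to 90465866, minus strand) was higher in each E18.5 library than in each E16.5 library on the CPM scale. It held 24.4, 26.9 and 23.5 CPM at E16.5 and 32.3, 31.3 and 35.97 CPM at E18.5. Both groups were tight on this scale, with coefficients of variation of 7.12% and 7.38%. Unlike Nppa and Nppb, Npr1 was highest of the E16.5 libraries in replicate 2. On the deposited FPKM scale its stages overlapped, at 3.75, 6.31 and 4.12 FPKM at E16.5 and 5.77, 6.53 and 7.64 FPKM at E18.5. The log2 change was 0.41 ± 0.13 (SE), or 1.33-fold, with an unadjusted p of 0.0115 and an adjusted p of 0.363 in edgeR. All 15 alternatives gave a higher value at E18.5, from 0.35 to 0.51, and 0 were past the threshold (adjusted p from 0.0774 to 0.832).

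Npr2 (ENSMUSG00000028469, chromosome 4, 43631935 to 43651244, plus strand), the C-type peptide receptor, did not differ beyond its spread. It held 135, 70.5 and 134 CPM at E16.5 and 124, 89.4 and 97.8 CPM at E18.5. The E18.5 libraries lay within the range of the E16.5 libraries, of which replicate 2 was far below the others. The log2 change was -0.12 ± 0.25 (SE) with an adjusted p of 0.891 in edgeR, and its sign turned in 5 of the 15 alternatives.

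The clearance receptor Npr3 (ENSMUSG00000022206, chromosome 15, 11839896 to 11907287, minus strand), known in the mouse heart for its expression in endocardium, did not separate the stages either. It held 44.9, 74.2 and 52.6 CPM at E16.5 and 59.4, 62.1 and 43.2 CPM at E18.5. The highest library was an E16.5 library and the lowest an E18.5 library, with overlap between the stages, and the log2 change was -0.06 ± 0.22 (SE) with an adjusted p of 0.941 in edgeR and a sign that turned in 4 of the 15 alternatives. Without E16.5 replicate 2, its highest library, the log2 change was 0.17 (adjusted p = 0.607). The endocardial markers, a list of 6 genes without Npr3, were lower at E18.5 in 6 of 6 with 0 called and a median log2 change of -0.26, and their summed level was 258 to 317 CPM at E16.5 and 235 to 261 CPM at E18.5. The sums overlapped between the stages. Before adjustment, 0 of the 6 were higher and 0 lower at a p under 0.05 in edgeR, against 4.83% and 4.70% of all tested genes. The list includes Hand2, whose exons overlap Hand2os1 on the other strand, which held 175% as many counts. The part of these markers in the Npr3 level was not tested.

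The balance of clearance to signalling receptor was measured within libraries. The FPKM ratio of Npr3 to Npr1 was 0.940, 1.40 and 1.14 in the E16.5 libraries and 0.937, 1.01 and 0.613 in the E18.5 libraries. The ranges overlapped, with means of 1.16 ± 0.233 and 0.853 ± 0.212 (SD, n = 3), and the log2 difference was -0.46 with an exact permutation p of 0.200, two-sided. Npr2 exceeded Npr1 in every library, by an FPKM ratio of 4.73 ± 1.78 at E16.5 and 3.21 ± 0.622 at E18.5.

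**Figure D3:**
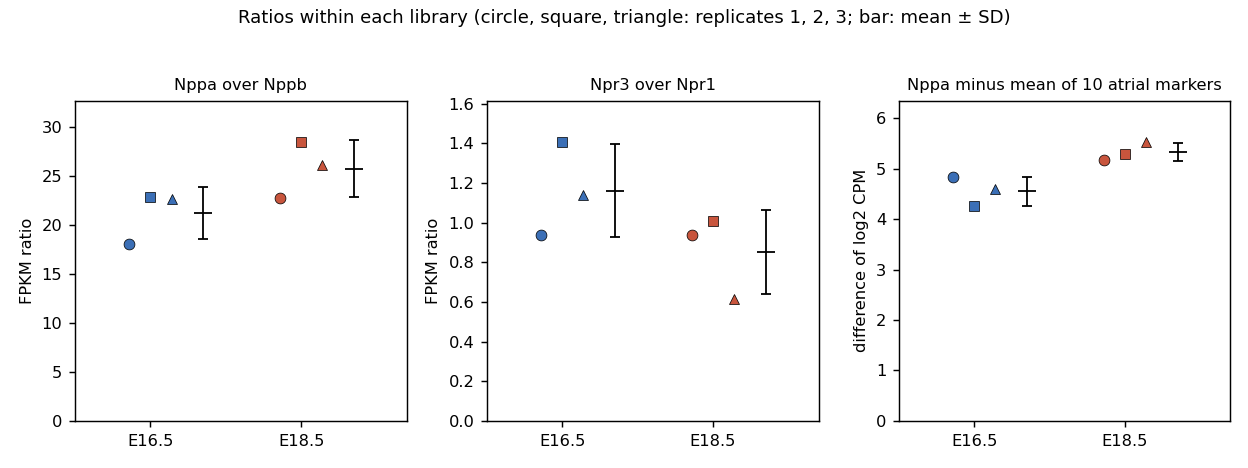
Within-library values for the 3 libraries of each stage with mean ± SD: the FPKM ratio of Nppa to Nppb, the FPKM ratio of Npr3 to Npr1, and log2 CPM of Nppa minus the mean log2 CPM of 10 atrial markers, all on axes from 0. Stages overlap in both ratios, and the E18.5 libraries lie above the E16.5 libraries in the atrial difference (5.18 to 5.53 against 4.25 to 4.83).

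Neither processing protease separated the stages. Corin (ENSMUSG00000005220, chromosome 5, 72300025 to 72504473, minus strand) held 45.8, 71.3 and 57.0 CPM at E16.5 and 55.9, 74.0 and 70.4 CPM at E18.5. The stages overlapped, and the log2 change was 0.20 ± 0.19 (SE) with an adjusted p of 0.751 in edgeR. Furin (ENSMUSG00000030530, chromosome 7, 80388585 to 80405436, minus strand) held 34.9, 35.3 and 41.0 CPM at E16.5 and 40.2, 37.5 and 38.9 CPM at E18.5. Its 6 libraries varied little and overlapped, with a log2 change of 0.07 ± 0.12 (SE) and an adjusted p of 0.874 in edgeR. The FPKM ratio of Corin to Furin was 2.68 ± 0.662 at E16.5 and 2.93 ± 0.514 at E18.5.

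E16.5 replicate 2 stood apart in opposite directions among the members. Within its stage it was the lowest library on the CPM scale for Nppa, Nppb and Npr2 and the highest for Npr1, Npr3 and Corin. On the deposited FPKM scale, which is not corrected for the mitochondrial share, Nppa was instead at 958, 982 and 1192 FPKM in the E16.5 libraries, with replicate 1 lowest. On that scale too, each E18.5 library was above each E16.5 library, at 2158, 2561 and 2685 FPKM.

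**Figure D4:**
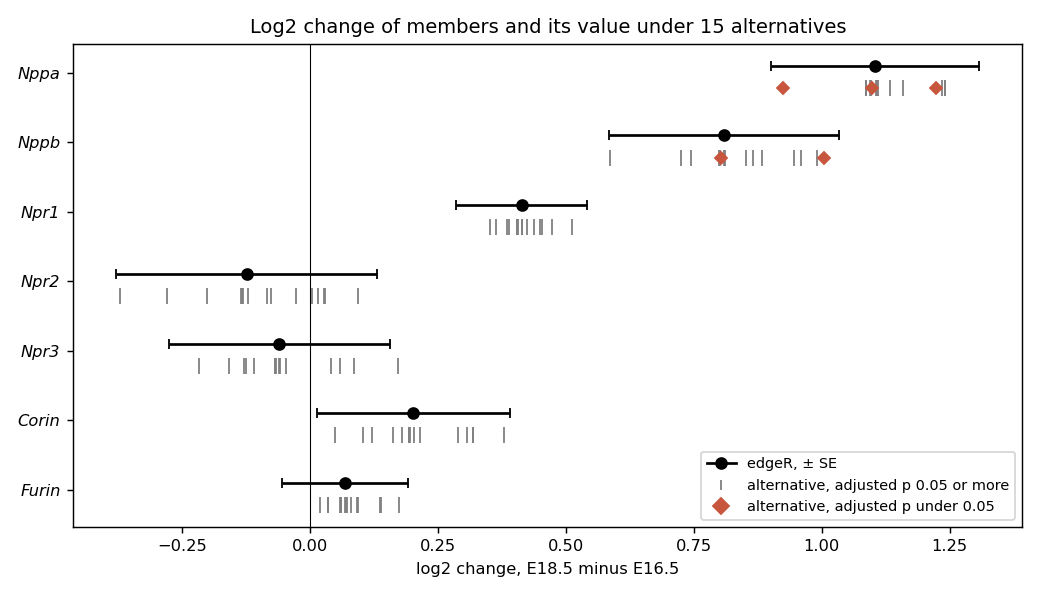
Log2 change from E16.5 to E18.5 (horizontal axis) of 7 members, as the edgeR estimate with its SE (black) and the value under each of 15 alternatives below it (grey ticks, or red diamonds where the adjusted p was under 0.05). Nppa and Nppb carry 3 and 2 diamonds, Npr1 lies above 0 throughout with none, and Npr2 and Npr3 straddle 0; Nppc, with a log2 change of -1.59 ± 1.59, is left out for scale.

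Nppa was set against markers of the chambers that transcribe it. Of 10 atrial cardiomyocyte markers, 7 were higher and 3 lower at E18.5, 0 were called, and the median log2 change was 0.34. Before adjustment, 4 of them were higher and 1 lower at a p under 0.05, against 4.83% and 4.70% of all tested genes. Their summed level was 1176 to 1689 CPM at E16.5 and 1483 to 2198 CPM at E18.5, with none of the 10 at 0. By mean CPM over the 6 libraries the first 3 were the atrial light chains Myl7 (log2 change 0.48, adjusted p = 0.595 in edgeR) and Myl4 (0.20, adjusted p = 0.716) and the atrial growth factor Bmp10 (0.88, adjusted p = 0.212). Sarcolipin (Sln), an atrial inhibitor of the calcium pump, had a log2 change close to that of Nppa, at 1.16 ± 0.20 (SE, adjusted p = 0.129 in edgeR), and the atrial myosin-binding protein gene Mybphl was at 0.80 ± 0.19 (SE, adjusted p = 0.225). Sln held 26.6, 25.97 and 39.1 CPM in the E16.5 libraries and 75.9, 73.8 and 54.8 CPM in the E18.5 libraries, without overlap. Both passed with the DESeq2 Wald test (adjusted p = 7.39e-05 for Sln and 0.0217 for Mybphl) and in edgeR with the mitochondrial share as a term (0.0313 and 0.0248), with adjusted p up to 0.474 and 0.649 in the other alternatives. The exons of Mybphl overlap Gm12522 on the other strand, which held 10.5% as many counts. The 3 lower markers were Nr2f1 (-0.52, adjusted p = 0.435 in edgeR), Nr2f2 (-0.10, adjusted p = 0.888) and Stard10 (-0.0031, adjusted p = 0.997). Of these, Nr2f1 was the marker lower at an unadjusted p under 0.05. Relative to the mean log2 CPM of the list, Nppa stood at 4.83, 4.25 and 4.59 in the E16.5 libraries and at 5.18, 5.30 and 5.53 in the E18.5 libraries. The stages did not overlap, and the difference of 0.78 had an exact permutation p of 0.1, two-sided, the smallest that 3 against 3 can give. Of 6 markers of trabecular and conduction cardiomyocytes, 1 was higher and 5 were lower, 0 were called, and the median was -0.45. The summed level of these 6 was 136 to 151 CPM at E16.5 and 91.9 to 99.4 CPM at E18.5, so Nppa and this sum stood on opposite sides between the stages. Before adjustment, 0 of the 6 were higher and 3 lower at a p under 0.05 in edgeR, against 4.83% and 4.70% of all tested genes. The 7 ventricular markers had a median of -0.16, with 3 higher, 4 lower and 0 called. At an unadjusted p under 0.05, 1 of these 7 was higher and 1 lower. The part of atrial and trabecular cell shares in the Nppa level was not tested.

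The genes that make, carry and break down cGMP, the messenger of Npr1 and Npr2, showed no common direction. Of 20 listed, 19 were tested, 9 higher and 10 lower at E18.5, with 0 called, and a median log2 change of -0.02. Before adjustment, 3 of them were higher and 2 lower at a p under 0.05, where 4.83% and 4.70% of all tested genes were. Those with the smallest p in edgeR were Rgs2, a regulator of G protein signalling and target of cGMP-dependent kinase (0.92, adjusted p = 0.278), Gucy1a1, a subunit of the soluble cyclase that responds to nitric oxide (-0.46, adjusted p = 0.336), and the phosphodiesterases Pde1c (0.52, adjusted p = 0.375) and Pde3b (-0.52, adjusted p = 0.432). Rgs2 held 7.45, 12.5 and 9.92 CPM at E16.5 and 14.1, 19.8 and 22.6 CPM at E18.5, without overlap. The kinase Prkg1, the main cGMP effector of smooth muscle, was at -0.02 ± 0.19 (SE, adjusted p = 0.980 in edgeR). Pde2a is uncertain, since Gm45837 overlaps its exons on the same strand with 837% as many counts.

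Of 9 other proteases and modifiers of the peptides, 8 were in the table, 6 higher and 2 lower with 0 called and a median of 0.09. Before adjustment, 0 of the 8 were higher and 1 lower at a p under 0.05 in edgeR, against 4.83% and 4.70% of all tested genes. Pcsk5, a proprotein convertase, had the smallest p (log2 change -0.49, adjusted p = 0.397 in edgeR). It was followed by Pcsk7 (0.31, adjusted p = 0.526), Galnt1 (0.20, adjusted p = 0.732), and Pcsk6, the convertase that activates corin (0.31, adjusted p = 0.745). The exons of Pcsk7 overlap Tagln and Rnf214 on the other strand, which held 54.1% and 53.8% as many counts. The peptide-degrading enzymes neprilysin (Mme, 0.11) and insulin-degrading enzyme (Ide, -0.06) had adjusted p of 0.919 and 0.885 in edgeR. Ostn is not analysed here.

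Transcription factors that act at Nppa and Nppb were split in direction. Of 17, 7 were higher and 10 lower at E18.5, 0 were called, and the median was -0.16. Before adjustment, 0 were higher and 2 lower at a p under 0.05, beside 4.83% and 4.70% over all tested genes. Those with the smallest p were the repressor Hey2 (-0.37, adjusted p = 0.461 in edgeR), the homeobox activator Nkx2-5 (-0.40, adjusted p = 0.471), Hand2 (-0.29, adjusted p = 0.553) and the Gata4 cofactor Zfpm2 (-0.27, adjusted p = 0.578). Hand2 overlaps Hand2os1 on the other strand, which held 175% as many counts. Gata4 (-0.09), Tbx5 (0.02) and Tead1 (0.09), whose motifs are capitalised above, had adjusted p of 0.835, 0.979 and 0.845 in edgeR. Of 6 genes known to accompany the peptides in stretched or failing myocardium, 4 were higher and 2 lower with 0 called and a median of 0.10. At an unadjusted p under 0.05, 0 of these 6 were higher and 0 lower. Their smallest p belonged to Csrp3 (0.31, adjusted p = 0.555), Xirp1 (-0.19, adjusted p = 0.694), Ankrd1 (0.17, adjusted p = 0.781) and Acta1 (0.24, adjusted p = 0.791), in edgeR.

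**Figure D5:**
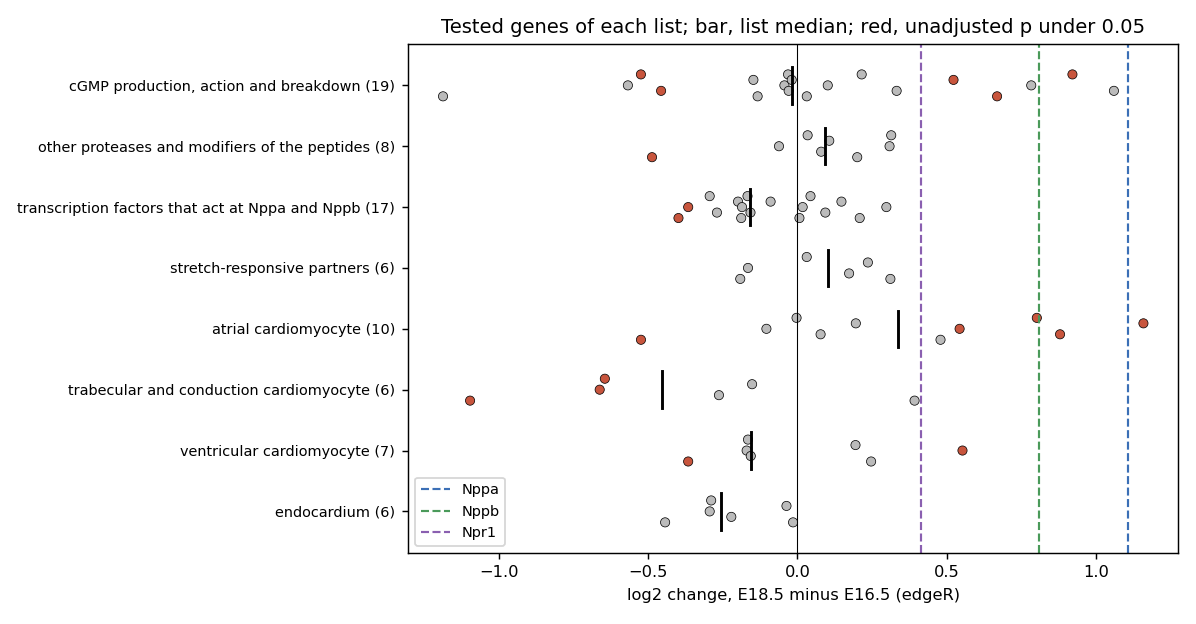
Log2 change from E16.5 to E18.5 in edgeR (horizontal axis) of each tested gene of 8 lists (the 4 pathway lists and the atrial, trabecular and conduction, ventricular and endocardial markers), with the list median as a black bar, genes at an unadjusted p under 0.05 in red, and dashed lines at Nppa (1.10), Nppb (0.81) and Npr1 (0.41). List medians run from -0.45 for trabecular and conduction markers to 0.34 for atrial markers among these 8; lists not drawn reach higher, such as epicardium at 0.92 and smooth muscle and pericyte at 0.43.

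Among 5400 named genes with a mean FPKM of at least 5, those whose log2 CPM ran most like Nppa over the 6 libraries were Lama5 (Pearson r = 0.995), a laminin chain, Slc20a1 (0.987), a phosphate transporter, Rxfp1 (0.984), the relaxin receptor, Kdm4b (0.983), a histone demethylase, and Ltbp4 (0.982), a latent TGF-beta binding protein. Rxfp1, for instance, held 60.6, 42.9 and 56.7 CPM at E16.5 and 92.9, 109 and 107 CPM at E18.5. Most like Nppb were Adamtsl5 (0.996), Usp36 (0.993), Safb (0.990), Nlgn2 (0.985) and the mitochondrial transfer RNA mt-Tq (0.984). For Npr3 they were Mkks (0.992), Cd81 (0.974), Bpnt2 (0.962), Polr1d (0.961) and Smim19 (0.955). These are descriptions over 6 points that share their libraries and stages, picked as the highest of many, and carry no test.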

How the data were processed

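The authors deposited 1 table that holds, for every gene and library, an estimated count and an FPKM value, as its column headers state. The deposited estimated counts are whole numbers, so none was rounded. FPKM, as deposited by the authors, is a level per transcript length and library size. Tools named in the submitters' processing notes, with no role given, are StringTie 1.3.4d, HISAT2 2.0.4, cutadapt 1.9 and UMI-tools, and the build named is mm9. Not given in the sources used here are UMI deduplication and the strand setting of the counting. The labels' protocols describe oligo(dT) selection and a strand-keeping library. Positions come from GENCODE M21 on GRCm38 by identifier. Only 611 of 29874 matched identifiers had the same coordinates in the table, so its own coordinates are not printed.

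Stages were compared over all genes with edgeR 4.0.16 in R 4.3.3 (filterByExpr, TMM, glmQLFit and glmQLFTest, two-sided), with a model of stage alone. After filtering, 19959 genes were tested, with Benjamini-Hochberg adjustment over them and a threshold of 0.05. SE was obtained from the log2 change and the F statistic. Within-library ratios were compared by exact permutation. Alternatives used DESeq2 1.42.0, limma 3.58.1 on log2(FPKM + 1) and log2(FPKM + 0.1), other filters, scalings and terms, and each library left out. The sex term was set by Xist, which was high in 3 libraries and low in 3. With 3 libraries to a stage such a split cannot be balanced, so sex and stage are partly confounded. The edgeR fit was also run on simulated counts, and the outcome of that run is not reported here.

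The 8 members and the lists were chosen with earlier results of these data known. From each pathway list, the 4 genes with the smallest p are named, and from the atrial list the 3 most abundant. The other marker lists are given as lists. Sln, Mybphl, Nr2f1, Nr2f2, Stard10, Prkg1, Pde2a, Mme, Ide, Gata4, Tbx5 and Tead1 were named after their values were seen. Promoter windows are RefSeq's (GRCm38.p6), with motifs searched on both strands.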

Additional observations from a re-analysis of the deposited data

How the results depend on the processing

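Nppa, Nppb, Npr1, Corin and Furin were higher at E18.5, and Nppc lower, in all 15 alternatives. Npr2 turned to 0.029 and 0.028 in limma on log2(FPKM + 0.1) and log2(FPKM + 1) and to 0.093 with the mitochondrial share as a term, and lay between -0.37 and 0.014 when single libraries were left out. Npr3 turned to 0.059 and 0.040 in the same limma fits and ranged from -0.22 to 0.17 with libraries left out. Acta1 ranged from -0.073 (without E18.5 replicate 3) to 0.43 with libraries left out. The limma fit with 0.1 added moved the median of all genes to 0.11, against -0.0019 in edgeR, so Npr2 and Npr3 lay below the median gene there. The cause of these turns was not tested. Members called numbered 0 in edgeR, 2 with DESeq2, 2 with the mitochondrial share as a term, and 0 to 1 with libraries left out. Genes called in all, higher and lower, were 343, 204 and 139 with DESeq2, 184, 129 and 55 with the mitochondrial share as a term, 14, 8 and 6 with sex as a term, 14, 7 and 7 in limma with 0.1 added, and 10, 5 and 5 in limma with 1 added. Leaving out single libraries gave 8 to 371 in all, 6 to 250 higher and 2 to 121 lower, the highest each time without E16.5 replicate 2. With the replicate block, 43 genes were called, 30 higher and 13 lower, and 0 members (Nppa adjusted p = 0.0883). Same-numbered libraries correlated at 0.083, 0.16 and -0.065 in their deviations from the stage means. The highest correlation of each E16.5 replicate with another number was -0.034, 0.10 and 0.15. Replicates 1 and 2 thus matched their own number best and replicate 3 did not. As the values were low and the match did not hold throughout, the numbers were not taken to pair libraries. The ratios and the Nppa difference from atrial markers kept their direction in every alternative run, at 0.17 to 0.37 for Nppa to Nppb, -0.60 to -0.24 for Npr3 to Npr1 and 0.63 to 0.91 for Nppa against atrial markers.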

Other observations

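The deposited table annotates 168 genes to the KEGG pathway of cGMP-PKG signaling, a list taken up after the data were seen, which includes 5 of the 8 members. Of 154 tested, 86 were higher and 68 lower at E18.5, 0 were called in edgeR, and before adjustment 11 were higher and 8 lower at a p under 0.05, against 4.83% and 4.70% of all tested genes. Nppa, Nppb and Npr1 are among the 11 higher, so that count is not independent of the members. The median log2 change of the list was 0.06. Smooth muscle and pericyte markers, the cells in which cGMP is known to relax vessels, were higher in 6 of 7 with a median of 0.43 and 0 called. Their summed level was 578 to 649 CPM at E16.5 and 817 to 875 CPM at E18.5, without overlap. Acta2 alone held most of this sum, at 456, 323 and 366 CPM at E16.5 and 486, 473 and 579 CPM at E18.5. The exons of Tagln, also in this list, overlap Pcsk7 on the other strand, which held 185% as many counts. Endothelial markers were higher in 7 of 8 with a median of 0.23 and 0 called, at 478 to 650 CPM and 612 to 704 CPM in sum. Epicardial markers were higher in 7 of 8 with a median of 0.92 and 1 called. Fibroblast markers were higher in 7 of 7 with a median of 0.38 and 0 called. Over all tested genes, 9937 of 19959 were higher and 0.150% were called. Before adjustment, 4 of 7 smooth muscle and pericyte, 2 of 8 endothelial, 5 of 8 epicardial and 2 of 7 fibroblast markers were higher at a p under 0.05 in edgeR. At that p, 0 of these markers were lower, against 4.83% of all tested genes higher and 4.70% lower. These marker lists were set beside the members for their cell types, and their part in the levels of Npr1 and Npr2 was not tested.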
